A study of Mus musculus with 27 samples.

Results

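Cd36, which encodes a fatty acid translocase, and 9 genes of the adipocyte programme were followed through a bulk RNA sequencing series of mouse fibroblasts and lungs with altered Foxm1, a forkhead transcription factor. The 10 genes were Cd36, Fabp4, Pparg, Cebpa, Lpl, Car3, Adipoq, Plin1, Cidec and Cfd, taken by symbol from a table of read counts for 24062 symbols. Each of the 10 had 1 row. They were chosen by earlier results on these libraries, in which Cd36 was lower in Het than in WT fibroblasts of experiment 2, so that comparison is given as a description. The series held 27 libraries, 3 in each of 9 groups, all of strain C57BL/6. In experiment 1, embryonic fibroblasts were labelled KO-NTD, KO or WT. In experiment 2, embryonic fibroblasts were labelled Het-NTD, WT-NTD, Het or WT. Whole lungs, labelled Het or WT, came from animals 10 days old. The fibroblasts were primary cells of early passage that were cycling without synchrony and were collected at about 90% confluence. What NTD stands for, which exons of Foxm1 were altered and which embryo a library came from are not given in the labels. The title of the series places FoxM1 shortage upstream of Ect2, RhoA and mDia1, and no adipogenic stimulus is named in the labels.

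Adipocytes arise from mesenchymal precursors when the nuclear receptor encoded by Pparg and the leucine zipper factor encoded by Cebpa turn on each other and then the genes of lipid storage. Embryonic fibroblasts are a common culture model of that switch, which usually needs confluent cells and a hormone cocktail. Cd36 is one target of PPAR gamma in adipocytes, but it is also a scavenger receptor of macrophages and a gene of capillary endothelium. In lung, Pparg is known for its role in alveolar macrophages and lipofibroblasts.

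The promoters of 7 of the 10 genes were found in RefSeq (GRCm38.p6), as 10 windows of 250 bases before a start site. Fabp4, Lpl and Car3 had no entry. Shown are the windows of Cd36, whose level moved apart from the other genes, and of the 4 genes of mature adipocytes, which were read in lung and at or near 0 in fibroblasts. Each is written 5′ to 3′ towards its start site, and capitals mark matches, on either strand, to the nuclear receptor half-site AGGTCA, the C/EBP site TTGCNNAA, the box CCAAT or the box TATAAA. The windows are those of Cd36 (chr5:17835897-17836146, minus strand), Adipoq (chr16:23146286-23146535, plus strand), Plin1 (chr7:79732777-79733026, minus strand), a start of Cidec (chr6:113434765-113435014, minus strand) and Cfd (chr10:79890603-79890852, plus strand).
Cd36: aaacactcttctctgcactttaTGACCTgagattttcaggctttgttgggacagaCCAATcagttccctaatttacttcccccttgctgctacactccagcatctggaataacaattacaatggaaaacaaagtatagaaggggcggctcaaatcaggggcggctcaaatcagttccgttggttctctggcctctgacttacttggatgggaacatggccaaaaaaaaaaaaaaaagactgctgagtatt
Adipoq: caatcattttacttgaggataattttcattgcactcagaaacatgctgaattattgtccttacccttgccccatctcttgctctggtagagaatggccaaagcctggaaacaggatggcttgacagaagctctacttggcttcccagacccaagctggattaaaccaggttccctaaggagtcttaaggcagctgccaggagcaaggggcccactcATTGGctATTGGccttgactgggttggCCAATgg
Plin1: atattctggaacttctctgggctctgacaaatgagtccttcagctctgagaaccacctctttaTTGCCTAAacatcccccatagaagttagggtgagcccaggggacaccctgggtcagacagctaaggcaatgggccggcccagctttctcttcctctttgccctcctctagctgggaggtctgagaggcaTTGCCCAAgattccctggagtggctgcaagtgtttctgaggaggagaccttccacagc
Cidec: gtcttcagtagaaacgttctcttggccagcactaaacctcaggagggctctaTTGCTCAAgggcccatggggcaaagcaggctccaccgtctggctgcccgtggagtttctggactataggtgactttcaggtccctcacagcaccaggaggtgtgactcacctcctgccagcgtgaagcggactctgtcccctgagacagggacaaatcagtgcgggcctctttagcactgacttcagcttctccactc
Cfd: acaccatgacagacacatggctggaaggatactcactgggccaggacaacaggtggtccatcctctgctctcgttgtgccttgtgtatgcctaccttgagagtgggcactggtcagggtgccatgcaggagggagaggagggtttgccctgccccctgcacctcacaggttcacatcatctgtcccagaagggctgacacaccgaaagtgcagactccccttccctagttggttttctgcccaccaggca

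The Cd36 window held 1 half-site, 228 bases before the start, and 1 CCAAT box at 195 bases. AGGTCA stood in 3 of the 10 windows, those of Cd36 and of 2 Pparg starts, and in 14% of all 32851 RefSeq promoters of that length. The spaced pair AGGTCANAGGTCA, the form bound by PPAR with RXR, stood in none of the 10 and in 0.0335% of all promoters. TTGCNNAA stood in 3 of the 10, with matches 187 and 58 bases before the Plin1 start and 198 bases before the Cidec start, and in 9.56% of all promoters. CCAAT stood in 4 of the 10, with 3 copies within the last 34 bases before the Adipoq start, and in 33.8% of all promoters. TATAAA stood in 2 of the 10, a Pparg and the Cebpa window, and in 12.4% of all promoters. The Cfd window held none of these letters. The Cd36 window lies inside the Cd36 gene of GENCODE M21, which spans chromosome 5 from 17781690 to 17888801 on the minus strand (GRCm38), downstream of its outermost start. A match is a run of letters and is no measure of binding.

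Library totals were 29730693 to 69517834 counts. Levels are CPM, counts scaled to library size by TMM over all 27 libraries, and changes are log2 differences fitted by edgeR within an experiment or tissue. The scaling used for levels and that of the fits differed between groups by at most 0.0199 on the log2 scale. Foxm1 was 150 to 162 CPM in fibroblasts labelled KO and 144 to 153 CPM in WT of experiment 1, and 131 to 136 CPM in Het and 151 to 154 CPM in WT of experiment 2. KO overlapped WT in experiment 1 (log2 change 0.10, edgeR adjusted p = 0.565), in a table that does not resolve exons. Het lay below WT in experiment 2 but Foxm1 was not called (log2 change -0.18, edgeR adjusted p = 0.249). In lung, Foxm1 was 14.03 to 16.79 CPM in Het and 15.11 to 16.85 CPM in WT, which overlapped (log2 change -0.06). Foxm1 was 360 to 422 CPM in KO-NTD, 321 to 391 CPM in Het-NTD and 305 to 423 CPM in WT-NTD, and it rose by 1.31 in KO-NTD against KO, by 1.42 in Het-NTD against Het and by 1.24 in WT-NTD against WT on the log2 scale (edgeR adjusted p = 0.000183, 0.000336 and 0.00137 in that order). Whether those reads come from the gene itself or from a sequence that NTD stands for cannot be told apart. The 10 fibroblast markers summed to 42090 to 64920 CPM in the 21 fibroblast libraries and the 8 alveolar type 2 cell markers to 16750 to 23790 CPM in the 6 lungs, none of them at 0 in any group of its own tissue. Macrophage markers were read in the fibroblast cultures at 9.16 to 420 CPM in sum, and lung Het 3 stood apart in several adipocyte genes. Results that these touch are given below with those values.

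The genes of the mature adipocyte were at or near 0 in fibroblasts and were read in every lung. Adipoq encodes the hormone adiponectin, Plin1 the coat protein perilipin of lipid droplets, Cidec a protein that fuses droplets, and Cfd the serine protease adipsin. In the 21 fibroblast libraries Adipoq had 0 to 8 counts, Plin1 0 to 8, Cidec 0 to 4 and Cfd 0 to 6. Adipoq was at 0 in 13 of the 21 libraries, Plin1 in 15, Cidec in 15 and Cfd in 13. Over all 21 they came to 29, 16, 14 and 25 counts in the same order. None of the 4 passed the filter on low counts in either fibroblast experiment, so no test was made of them there. A difference between fibroblast groups was not detectable at this depth, at which 3 counts equal 0.0458 to 0.105 CPM.

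**Figure D1:**
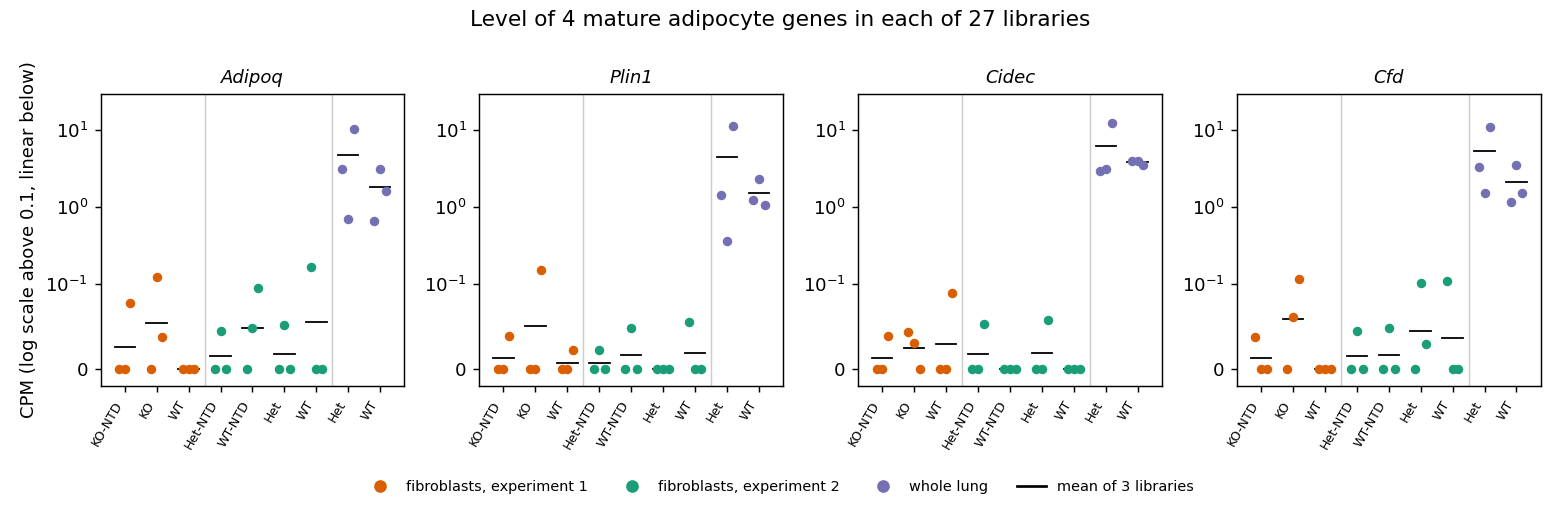
CPM of Adipoq, Plin1, Cidec and Cfd in each of 27 libraries (vertical axis logarithmic above 0.1 and linear below it); points are libraries, bars are means of 3, and colours mark experiment 1, experiment 2 and lung. Every lung library lies above every fibroblast library in each panel, and lung Het 3 is the highest point, between 10.5 and 12.4 CPM.

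In WT lung the sums were 225 counts for Adipoq, 197 for Plin1, 498 for Cidec and 264 for Cfd, against 6, 2, 0 and 4 counts in WT fibroblasts of experiment 2. The ratio per library size of WT lung to WT fibroblasts was 31.1 for Adipoq (95% counting interval 14 to 85.5), 81.6 for Plin1 (22.3 to 678) and 54.7 for Cfd (21.1 to 202). Cidec was at least 138-fold higher in WT lung, taking 3 counts over the 3 fibroblast libraries in place of 0. These intervals cover counting error only. Of the 12 adipocyte markers, the leptin gene Lep was at 0 in all 7 fibroblast groups, and the sum of the 12 was 7.21 to 15.2 CPM in fibroblasts.

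The regulators Pparg and Cebpa were read in every fibroblast library at low levels. Pparg was 3.14, 3.80 and 5.57 CPM in KO-NTD, 4.93, 5.45 and 6.74 CPM in KO, and 3.88, 4.56 and 3.70 CPM in WT of experiment 1. It was 3.59, 3.79 and 3.92 CPM in Het-NTD, 2.97, 2.98 and 2.53 CPM in WT-NTD, then 3.59, 4.40 and 4.40 CPM in Het, and 2.77, 3.78 and 3.79 CPM in WT of experiment 2. The whole fibroblast range was thus narrow, and the highest library was a KO one. In lung, Pparg was 6.01, 5.17 and 9.39 CPM in Het and 5.25, 5.23 and 6.16 CPM in WT. Ranked by mean, lung Het stood first with 6.86 ± 2.23 CPM and WT-NTD last with 2.83 ± 0.259 CPM (SD, n = 3), and each group overlapped the next in that order.

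Cebpa was 5.75, 8.44 and 8.36 CPM in KO-NTD, 9.94, 10.5 and 9.74 CPM in KO, and 5.96, 4.47 and 7.54 CPM in WT of experiment 1. All KO values lay above those of the other 6 fibroblast groups. The 4 groups of experiment 2 held 5.73 to 9.52 CPM and overlapped one another. In lung it was 76.0, 83.7 and 92.8 CPM in Het and 75.9, 85.9 and 82.2 CPM in WT, far above any fibroblast library.

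Lpl, the lipoprotein lipase that frees fatty acids from circulating triglyceride, had the most counts of the 10 genes in fibroblasts. It was 40.1, 39.6 and 51.1 CPM in KO-NTD, 55.6, 90.2 and 68.0 CPM in KO, and 35.8, 34.5 and 44.2 CPM in WT of experiment 1. In experiment 2 it was 45.4, 45.5 and 47.0 CPM in Het-NTD, 54.4, 60.4 and 67.1 CPM in WT-NTD, then 37.5, 47.1 and 47.3 CPM in Het, and 65.1, 44.9 and 40.4 CPM in WT. KO stood above both other groups of experiment 1, and WT-NTD overlapped WT. Per kilobase of the longest annotated transcript, the mean levels in WT fibroblasts of experiment 2 were 12.2 CPM for Lpl, 3.52 for Fabp4, 3.06 for Cebpa, 2.30 for Cd36, 1.62 for Pparg and 0.569 for Car3. In WT lung the same scale gave 122 CPM for Cd36, 31.0 for Cebpa, 23.4 for Lpl, 19.4 for Fabp4, 15.6 for Car3 and 2.61 for Pparg. Lpl thus led the order in culture and Cd36 in lung.

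Fabp4 encodes the fatty acid binding protein of adipocytes, which is also made by macrophages and capillary endothelium. It was 1.84, 5.57 and 3.19 CPM in KO-NTD, 7.62, 2.55 and 2.84 CPM in KO, and 1.97, 3.23 and 2.33 CPM in WT of experiment 1. Its highest fibroblast library was KO 1, the KO library with the lowest Cd36. Car3, a carbonic anhydrase of adipocytes and skeletal muscle, had 2 to 63 counts per fibroblast library, or 0.0438 to 1.57 CPM, and no 2 fibroblast groups stood apart in neighbouring ranks. In lung Car3 ran from 12.02 to 53.8 CPM in Het and from 5.08 to 45.1 CPM in WT. The 12 skeletal muscle markers summed to 671, 401 and 370 CPM in lung Het 1, 2 and 3 and to 170, 886 and 686 CPM in lung WT 1, 2 and 3, and their part in the spread of Car3 was not tested.

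**Figure D2:**
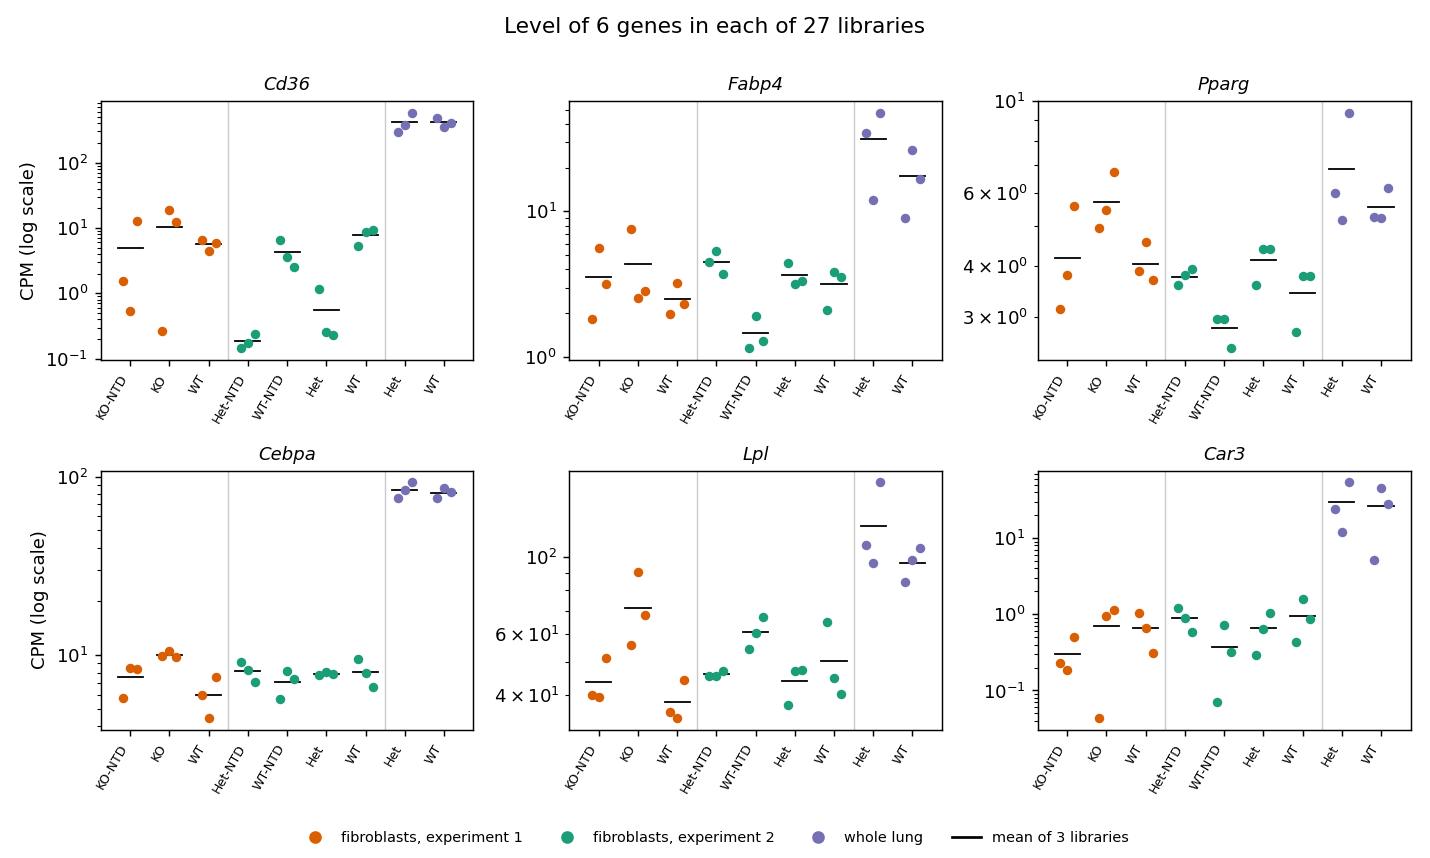
CPM of Cd36, Fabp4, Pparg, Cebpa, Lpl and Car3 in each of 27 libraries (logarithmic axes with a scale of their own in each panel); points are libraries, bars are means of 3, and vertical lines part experiment 1, experiment 2 and lung. Cd36 spans 0.146 to 18.6 CPM among fibroblasts, while Pparg stays between 2.53 and 6.74 CPM.

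Cd36 varied most among the fibroblasts and was lower in both Het groups of experiment 2. Its level was 0.146, 0.176 and 0.237 CPM in Het-NTD, from 6, 8 and 9 counts, and 6.64, 3.61 and 2.53 CPM in WT-NTD, from 190, 149 and 80 counts. It was 1.18, 0.259 and 0.231 CPM in Het and 5.27, 8.79 and 9.38 CPM in WT. No Het-NTD or Het library reached the lowest WT-NTD or WT library. In experiment 1 it was 1.53, 0.534 and 12.6 CPM in KO-NTD, 0.263, 18.6 and 12.4 CPM in KO, and 6.50, 4.38 and 5.99 CPM in WT. KO-NTD and KO each held both low and high libraries, on either side of the WT range. By mean, the groups ran from lung Het and lung WT through KO, WT of experiment 2, WT of experiment 1, KO-NTD, WT-NTD and Het to Het-NTD, and of the neighbours only lung WT and KO, and WT-NTD and Het, did not overlap.

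Het-NTD against WT-NTD compared the genotypes in 6 libraries that are not in the comparison of Het with WT. Since the genes were chosen with results of the whole series known, its p-values are not independent of that choice. Of the 6 genes tested, Cd36 was called lower and Fabp4 higher in Het-NTD than in WT-NTD. Beside them, 11.5% of all 14314 genes were called in either direction (6.24% lower, 5.24% higher). Cd36 averaged 0.186 ± 0.0464 CPM in Het-NTD and 4.26 ± 2.13 CPM in WT-NTD (SD, n = 3). The fitted log2 change was -4.49 ± 0.64 (SE; 95% interval -5.91 to -3.06), and the edgeR adjusted p was 0.00175. Fabp4 was 4.49, 5.34 and 3.74 CPM in Het-NTD and 1.15, 1.92 and 1.30 CPM in WT-NTD, with every Het-NTD library above every WT-NTD library. Its log2 change was 1.63 ± 0.27 (SE; interval 1.05 to 2.2), and the edgeR adjusted p was 0.00234. WT-NTD had the lowest Fabp4 mean of the 9 groups, at 1.46 CPM. Het-NTD against Het gave Fabp4 a log2 change of 0.32 (interval -0.22 to 0.86), with overlap. WT-NTD against WT gave it -1.10 (interval -1.68 to -0.51), with no overlap. Cd36 and Fabp4, both carriers of fatty acids, thus differed in opposite directions between Het-NTD and WT-NTD.

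The other 4 genes tested did not pass in Het-NTD against WT-NTD. Pparg had a log2 change of 0.42 (interval 0.07 to 0.77, edgeR adjusted p = 0.125) and Lpl of -0.39 (interval -0.75 to -0.03, edgeR adjusted p = 0.16), and neither had overlapping groups. Lpl was called with the 2 groups alone in the fit (log2 change -0.40, edgeR adjusted p = 0.00844). Cebpa gave 0.21 (interval -0.13 to 0.54) and Car3 1.21 (interval -0.26 to 2.67). The median of the 6 was 0.31, against 0.00 over all genes tested. Leaving out any 1 of the 6 libraries gave Cd36 a log2 change of -4.75 to -4.03 and Fabp4 one of 1.49 to 1.89, and both remained called.

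In Het against WT of experiment 2, the comparison behind the choice, Cd36 averaged 0.557 ± 0.540 CPM in Het and 7.81 ± 2.22 CPM in WT (SD, n = 3), a log2 difference of -3.77, and 16.5% of all genes were called (7.89% higher, 8.61% lower). Nothing is read from that call. Fabp4 was 4.40, 3.18 and 3.33 CPM in Het and 2.11, 3.83 and 3.52 CPM in WT, which overlapped, with a log2 difference of 0.21. Pparg differed by 0.26, Cebpa by -0.03, Lpl by -0.19 and Car3 by -0.54 on the log2 scale, each with overlapping groups. The differences of Het-NTD against WT-NTD for the same genes stand in the preceding paragraphs and come from other libraries of the same fit.

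Macrophage markers moved with Cd36 across the fibroblast cultures. The 14 markers summed to 16.9, 11.7 and 17.4 CPM in Het-NTD 1, 2 and 3 and to 183, 76.2 and 96.8 CPM in WT-NTD 1, 2 and 3. They summed to 75.4, 11.5 and 28.2 CPM in Het and to 203, 186 and 224 CPM in WT. Cd163 was at 0 in all 3 Het-NTD libraries, and no other marker was at 0 throughout a group. Of the 13 tested, 13 fell in Het-NTD against WT-NTD (median log2 change -3.30, against 0.00 over all genes). Of the same 13, 11 were lower in Het than in WT (median -2.43). Of all genes, edgeR called 6.24% lower in Het-NTD against WT-NTD and 8.61% lower in Het against WT. In experiment 1 the sum was 38.1, 9.16 and 308 CPM in KO-NTD, 11.7, 420 and 283 CPM in KO, and 107, 63.6 and 84.8 CPM in WT, so that the libraries low in Cd36 were those low in the markers. Fewer macrophages and less RNA per macrophage cannot be told apart in bulk RNA.

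**Figure D3:**
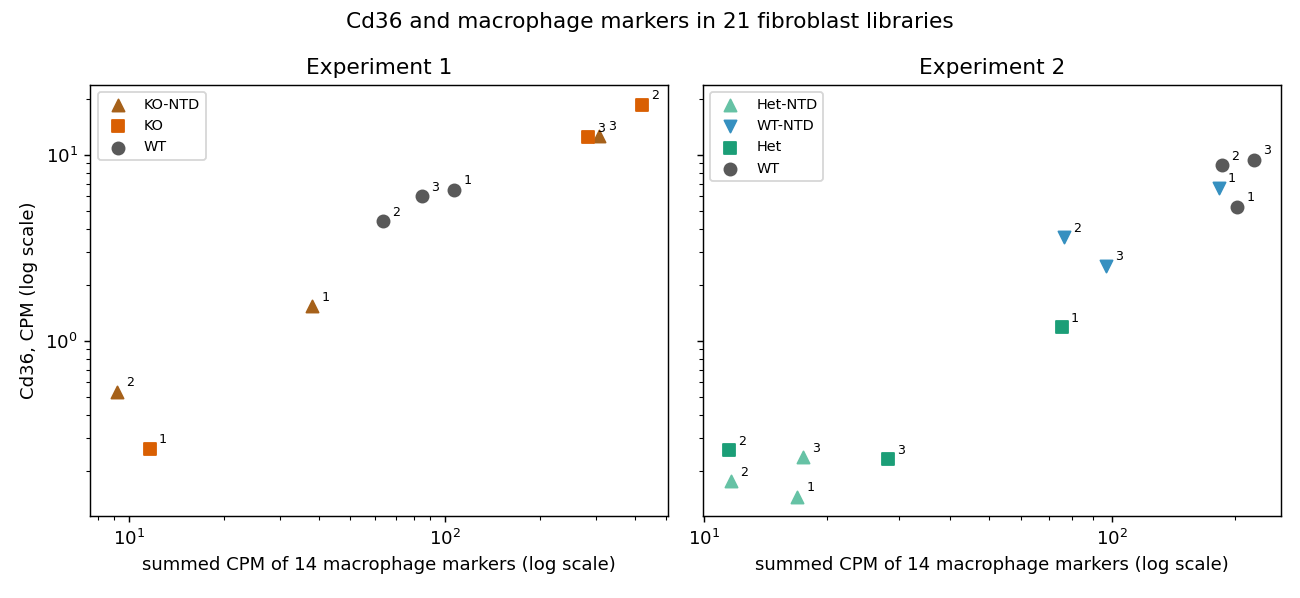
Cd36 (CPM, logarithmic vertical axis) against the summed CPM of 14 macrophage markers (logarithmic horizontal axis) in 21 fibroblast libraries, with experiment 1 at left and experiment 2 at right; shapes and colours mark groups and small numbers mark replicates. The points rise together from 9.16 to 420 CPM of the markers, with Het-NTD and 2 Het libraries at the low end of experiment 2.

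The genes whose log2 level ran most like that of Cd36 over the 21 fibroblast libraries were macrophage or leukocyte genes. Of 11649 candidates the first 6 were Msr1, a scavenger receptor (Pearson correlation 0.966), Lcp1, a leukocyte actin bundler (0.963), Itgam, an integrin of myeloid cells (0.957), Lyz2, lysozyme (0.955), Csf1r, the receptor that macrophages need (0.952), and Hcls1, a leukocyte signalling adaptor (0.950). Msr1 gave 0.976 over the 9 libraries of experiment 1 and 0.956 over the 12 of experiment 2. With Spearman correlation, or with deviations from group means, 1 of these 6 stayed among the first 6. Itgam, Lyz2 and Csf1r are on the marker list. Among the adipocyte genes the correlation with Cd36 was 0.274 for Lpl, 0.14 for Car3, 0.107 for Pparg, -0.127 for Cebpa and -0.537 for Fabp4. With deviations from group means it was 0.39 for Lpl, 0.53 for Car3, 0.48 for Pparg, 0.01 for Cebpa and -0.51 for Fabp4, and 0.937 for Msr1. Among pairs of the other genes the highest was 0.66, for Cebpa with Lpl. These are descriptions over 21 libraries that share groups, experiments and cultures.

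Per 100 CPM of macrophage markers, Cd36 was 0.861 to 1.51 CPM in Het-NTD and 2.61 to 4.74 CPM in WT-NTD, and 0.820 to 2.25 CPM in Het and 2.59 to 4.72 CPM in WT. In experiment 1 it was 4.03 to 5.82 CPM in KO-NTD, 2.25 to 4.43 CPM in KO and 6.07 to 7.06 CPM in WT. The Het-NTD and Het ranges thus lay below those of WT-NTD and WT on this scale too. In experiment 1 the KO-NTD and KO ranges both lay below that of WT. The WT range of experiment 2 also lay below the WT range of experiment 1. With the mean log2 level of the macrophage markers as a covariate, the log2 change of Cd36 in Het-NTD against WT-NTD was -2.11 (edgeR adjusted p = 0.249) and that of Fabp4 was 1.70 (edgeR adjusted p = 0.123), and both calls were lost. In Het against WT, Cd36 was then at -1.84 (edgeR adjusted p = 0.142). Genotype and marker level run together in these cultures, so that fit cannot tell them apart.

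KO against WT in experiment 1 shares no library with experiment 2, and the same limit holds for it. None of the 6 genes tested was called, beside 0.447% of all 14551 genes (0.124% higher, 0.323% lower, 65 called by edgeR in all). At an unadjusted p under 0.05 there were 2 of 6, Lpl and Cebpa, beside 12% of all genes, and DESeq2 called the same 2, beside 3.09% of all genes. Lpl averaged 71.3 ± 17.6 CPM over KO libraries and 38.1 ± 5.30 CPM over WT libraries (SD, n = 3). Its log2 change was 0.92 ± 0.19 (SE; interval 0.48 to 1.36, edgeR adjusted p = 0.103, DESeq2 adjusted p = 0.000102). Without KO 1 its edgeR adjusted p was 0.0392, and with the macrophage markers as a covariate 0.00873. Cebpa averaged 10.1 ± 0.417 CPM over KO libraries and 5.99 ± 1.53 CPM over WT libraries (SD, n = 3), and its log2 change was 0.77 ± 0.21 (SE; interval 0.29 to 1.25, edgeR adjusted p = 0.192, DESeq2 adjusted p = 0.0213). Pparg gave 0.52 (interval -0.01 to 1.04, edgeR adjusted p = 0.423). KO and WT libraries did not overlap in Lpl, Cebpa and Pparg. That is a description, since no share of all genes stands beside it.

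Cd36 and Fabp4 overlapped between KO and WT. Cd36 gave a log2 change of 0.92 with an interval of -2.07 to 3.91, which leaves the direction undetermined. With the macrophage markers as a covariate the value was -0.49 (edgeR adjusted p = 0.269). Fabp4 gave 0.80 (interval -0.39 to 1.99) and Car3 0.12 (interval -1.87 to 2.12). The median of the 6 was 0.79, against 0.01 over all genes tested, and all 6 were above 0.

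KO-NTD against KO called none of the 6, beside 0.00687% of all genes (1 called). Lpl averaged 43.6 ± 6.52 CPM in KO-NTD and 71.3 ± 17.6 CPM in KO (SD, n = 3), a log2 change of -0.73 (interval -1.17 to -0.29, edgeR adjusted p = 0.714, DESeq2 adjusted p = 0.0497), with no overlap. Cebpa gave -0.44 (interval -0.92 to 0.04), also with no overlap. At an unadjusted p under 0.05 there was 1 of 6, Lpl, beside 6.68% of all genes, and DESeq2 also called it, beside 0.179%. This comparison shares the KO libraries with that of KO against WT, and all 6 values were below 0. Cd36 gave -1.11 (interval -4.10 to 1.89). Leaving out 1 library gave it values from -3.34 (without KO-NTD 3) to -0.40 (without KO 2). With the macrophage markers as a covariate it was at 0.16 (edgeR adjusted p = 0.89).

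The NTD label went with no called change of these genes in experiment 2. Het-NTD against Het called none of 6 (0.014% of all genes called, 0.00699% in each direction, with 0 of the 6 at an unadjusted p under 0.05, beside 6.26% of all genes, and 0 by DESeq2, beside 0.161%). Cd36 gave a log2 change of -1.60 there (interval -3.23 to 0.04, edgeR adjusted p = 0.793). WT-NTD against WT called none of 6 (0.014% of all genes called). Fabp4 averaged 1.46 ± 0.405 CPM in WT-NTD and 3.16 ± 0.917 CPM in WT (SD, n = 3), with no overlap. Its log2 change was -1.10 ± 0.27 (SE; interval -1.68 to -0.51, edgeR adjusted p = 0.654), DESeq2 called it (adjusted p = 0.0495), and edgeR did without WT 1 (log2 change -1.32, adjusted p = 0.0397). It was the 1 gene of the 6 at an unadjusted p under 0.05, beside 7.37% of all genes, and DESeq2 called 0.21% of all genes. The interaction of NTD with genotype called none of 6 (0% of all genes called by edgeR, 3 genes by DESeq2). Fabp4 had a log2 interaction of 1.42 (interval 0.62 to 2.21, edgeR adjusted p = 0.892) and was the 1 of 6 at an unadjusted p under 0.05, beside 4.97% of all genes, and DESeq2 called none of the 6. Cd36 had -0.72 (interval -2.65 to 1.21). Whether the difference of Fabp4 between Het-NTD and WT-NTD depends on NTD was thus not settled. The interaction did not pass the adjusted threshold, while its unadjusted interval lay above 0. Het against WT differed by 0.21 on the log2 scale, with overlapping groups.

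**Figure D4:**
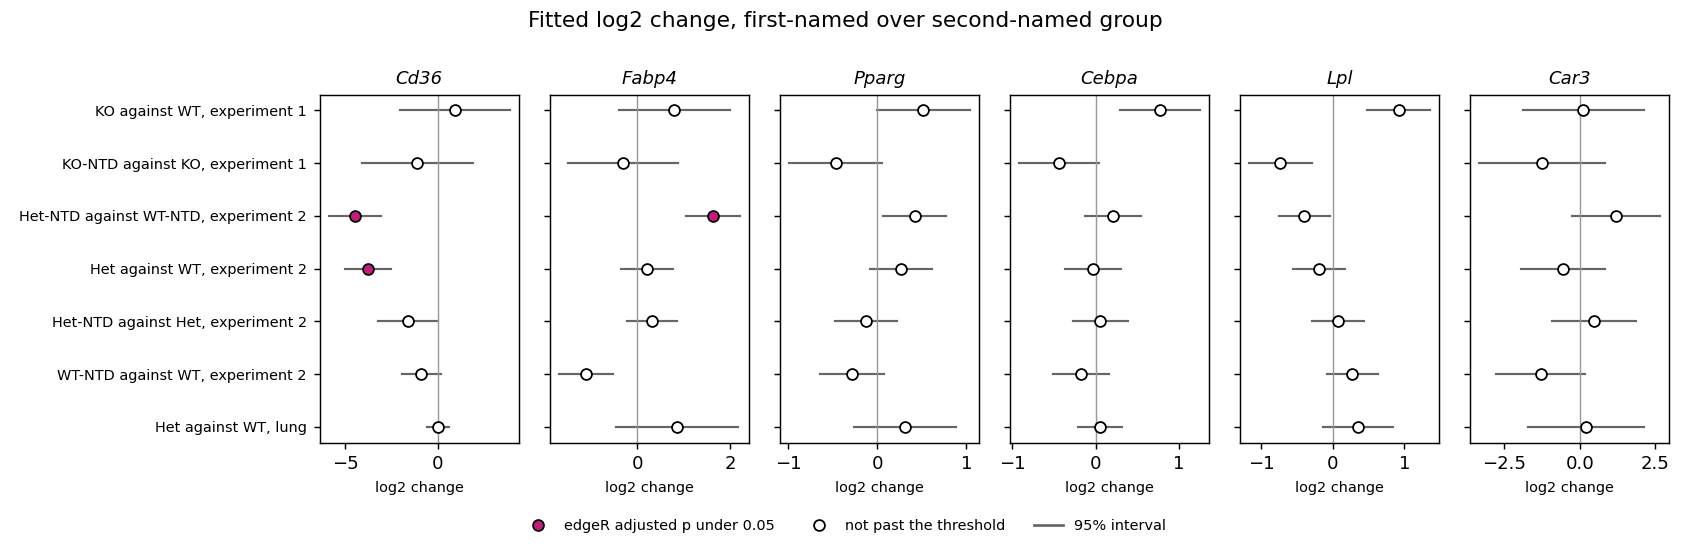
Fitted log2 changes (horizontal axes) of 6 genes in 7 comparisons (rows, first-named over second-named group); circles are edgeR estimates, lines are 95% intervals, and filled circles have an adjusted p under 0.05. Cd36 is filled in both Het rows of experiment 2, at -4.49 and -3.77, the second being the comparison behind its choice, and Fabp4 in Het-NTD against WT-NTD, at 1.63.

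In lung, Cd36 did not follow the Het label. It was 296, 370 and 580 CPM in Het and 483, 354 and 408 CPM in WT, and the groups overlapped. The log2 change was 0.00 (interval -0.59 to 0.59). None of the 10 genes was called in lung Het against WT, beside 0% of all 15933 genes. At an unadjusted p under 0.05 there were 0 of the 10 and 114 of all genes, and DESeq2 called 0 of the 10 and 1 gene in all. All 10 values were at or above 0, with a median of 0.52 against 0.01 over all genes tested.

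That shift rested on lung Het 3. Adipoq was 3.10, 0.689 and 10.5 CPM in Het and 0.666, 3.16 and 1.61 CPM in WT. Plin1 was 1.44, 0.364 and 11.6 CPM in Het and 1.25, 2.29 and 1.06 CPM in WT. Cidec was 2.99, 3.16 and 12.4 CPM in Het and 3.93, 3.98 and 3.54 CPM in WT. Het 3 stood above the other 5 lungs in each, and the other Het lungs stood within or below the WT range. Cfd was 3.35, 1.51 and 11.1 CPM in Het and 1.17, 3.58 and 1.53 CPM in WT. Fabp4 was 34.4, 11.98 and 47.7 CPM in Het and 8.98, 26.5 and 16.8 CPM in WT. Lpl was 108, 95.8 and 164 CPM in Het and 84.8, 97.7 and 106 CPM in WT. Het 3 was again the highest lung in all 3 genes.

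Without lung Het 3 the log2 changes in Het against WT were 0.08 for Adipoq, -0.77 for Plin1, -0.30 for Cidec, 0.23 for Cfd, 0.43 for Fabp4, 0.10 for Lpl, -0.31 for Cd36, 0.03 for Pparg, -0.01 for Cebpa and -0.51 for Car3. With it they were 1.4, 1.54, 0.70, 1.35, 0.85, 0.35, 0.00, 0.31, 0.05 and 0.20 in the same order. Lung Het 3 had the highest level of all 10 genes, with a median ratio of 2.38 to the mean of the other 5 lungs. It was the highest lung for 32% of the 14177 genes with a mean of at least 1 CPM in lung, for which the median ratio was 0.995. Of the 12 adipocyte markers it was the highest for 10 (median ratio 2.97), of the longer list of 20 adipokine and mature adipocyte genes for 10 (1.2), and of 18 lipid droplet and lipolysis genes for 9 (1.06). The sum of the 12 markers was 91.3, 59.4 and 145 CPM in lung Het 1, 2 and 3 and 54.4, 81.8 and 70.1 CPM in lung WT 1, 2 and 3.

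Ucp1 and Cidea, genes of brown adipocytes, were looked at after their values were seen. Ucp1, the uncoupling protein of thermogenic fat, was 0.761, 0.0574 and 21.5 CPM in lung Het 1, 2 and 3, against 0.242, 0.747 and 0.495 CPM in lung WT 1, 2 and 3. Cidea was 1.25, 0.747 and 8.66 CPM in lung Het and 0.464, 1.42 and 0.817 CPM in lung WT. Lung Het 3 was thus 46.6 times the mean of the other 5 lungs in Ucp1 and 9.22 times in Cidea. Not all adipocyte markers were high in it: the ratio was 1.24 for the lipase gene Lipe, 0.888 for the glucose transporter gene Slc2a4 and 0.749 for the receptor gene Adrb3. The part of fat tissue in that lung sample was not tested.

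**Figure D5:**
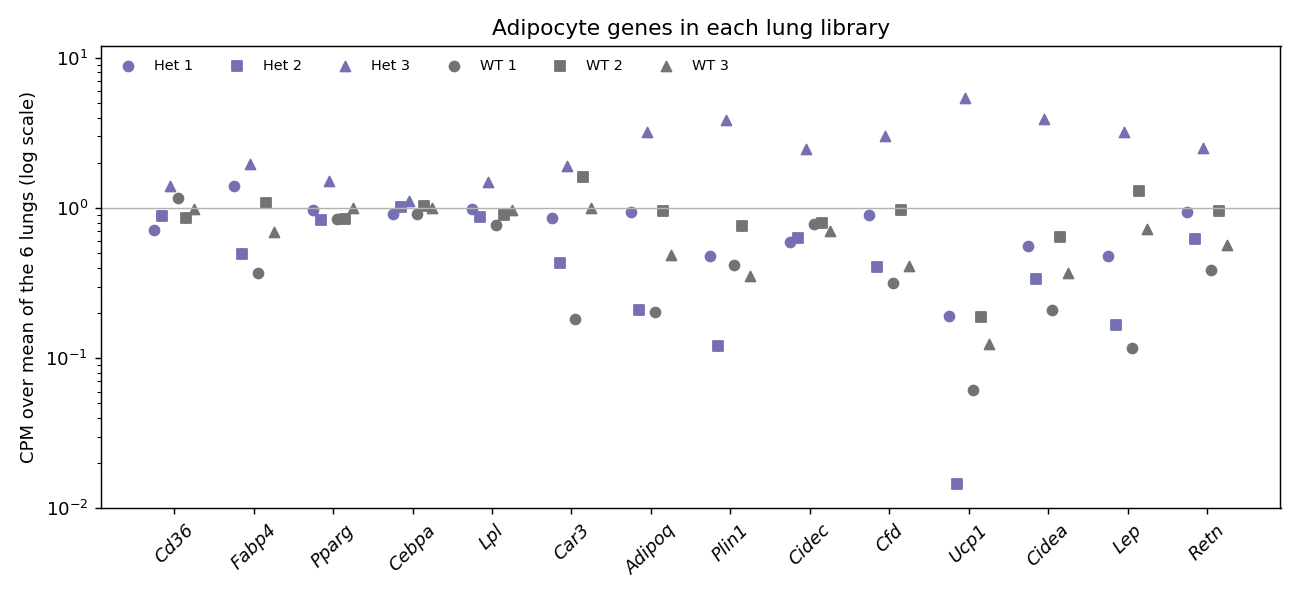
CPM of 14 genes in each lung library divided by the mean of the 6 lungs (logarithmic vertical axis); purple marks are Het and grey marks WT, with a circle, square and triangle for replicates 1, 2 and 3. Het 3, the purple triangle, is the highest in every column, by most in Ucp1, where it had 21.5 CPM. The columns leave out listed adipocyte genes in which Het 3 was not the highest, such as Adrb3 and Slc2a4.

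Cd36, Cebpa, Car3, Fabp4, Lpl and Pparg, the 6 genes that passed the filter in fibroblasts as well, were all called higher in WT lung than in WT fibroblasts of experiment 2, beside 75.6% of 16364 genes called in either direction and 41.5% called higher. Cd36 averaged 415 ± 64.6 CPM in WT lung and 7.81 ± 2.22 CPM in WT fibroblasts (SD, n = 3). The log2 change was 5.72 ± 0.44 (SE, edgeR adjusted p = 2.88e-07). Cebpa gave 3.32 ± 0.13 (SE, edgeR adjusted p = 1.52e-09), Car3 4.75, Fabp4 2.45 and Lpl 0.93. Pparg gave 0.67 (interval 0.16 to 1.18, edgeR adjusted p = 0.02). Its call was lost without fibroblast WT 1 (adjusted p = 0.0799) or lung WT 3 (0.0671). Adipoq, Plin1, Cidec and Cfd entered that fit through their lung counts alone, so nothing is read from their calls, and their ratios stand above. Endothelial markers summed to 2947 to 3572 CPM in lung and 9.63 to 20.9 CPM in fibroblasts, macrophage markers to 1261 to 2114 CPM in lung, alveolar macrophage markers to 186 to 270 CPM in lung and 0.233 to 1.33 CPM in fibroblasts, and lipofibroblast markers to 3477 to 4602 CPM in lung and 688 to 1070 CPM in fibroblasts. Their part in the lung levels was not tested, and tissue and experiment cannot be told apart.

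The Het effect on Cd36 in lung was also set against that in fibroblasts, as a description. The effect in lung minus the effect in fibroblasts was 3.77 ± 0.61 on the log2 scale (SE; interval 2.44 to 5.10, edgeR adjusted p = 0.0191), and Cd36 was called while the other 5 genes that passed the filter in both tissues were not, beside 1.12% of all genes (0.813% higher, 0.312% lower). In the separate fits Cd36 was at -3.77 in fibroblasts and at 0.00 in lung. The value is thus that of the comparison behind the choice of Cd36, and nothing is read from the call. The call was lost without fibroblast Het 3 (adjusted p = 0.0544), lung WT 2 (0.0594) or lung WT 3 (0.0673). Macrophage markers summed to 1261, 1896 and 1986 CPM in lung Het and 1801, 1659 and 2114 CPM in lung WT, a smaller spread than in the fibroblasts.

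Around these 10 genes, other genes of fat biology were called in both directions in Het-NTD against WT-NTD. Over 9 lists, with a gene counted once per list, edgeR called 30 of 139, beside 11.5% of all genes. That share of all genes stands beside each list count given below for this comparison. At an unadjusted p under 0.05 there were 57 of the 139 (41%, beside 25.4% of all genes). DESeq2 called 38 of them, beside 14.6% of all genes. Among 19 tested regulators of adipogenesis 2 rose and 1 fell. Ebf2, a factor of brown and beige precursors, rose by 1.61 ± 0.18 on the log2 scale (SE, edgeR adjusted p = 0.000236), Cebpb, an early factor of the cascade, gave 0.33, and the signal transducer gene Stat5b -0.26. Among 16 restrainers 1 rose and 3 fell. Dlk1, which encodes a preadipocyte factor, averaged 186 CPM in Het-NTD and 615 CPM in WT-NTD on the scale of the fit (log2 change -1.72 ± 0.30 SE, edgeR adjusted p = 0.00808). Gata3 fell by 1.49 and the Notch target Hes1 by 0.36 on the log2 scale, while Gata2 rose by 0.63. Cebpb shares exon sequence with Tmem189 on the other strand and Gata3 with a clone-named gene, and the kit does not mark strand, so which gene those reads belong to is uncertain.

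Genes that take up and bind fatty acids were also split, with 2 higher and 2 lower of 19 tested. Fabp5, the epidermal relative of Fabp4, averaged 243 CPM in Het-NTD and 168 CPM in WT-NTD on the scale of the fit (log2 change 0.53 ± 0.05 SE, edgeR adjusted p = 3.71e-05), and the transporter gene Slc27a4 rose by 0.56 on the log2 scale. The caveolar genes Cav1 and Ptrf gave -0.85 and -0.33. Of 14 lipid droplet and lipolysis genes, Plin2, the droplet coat of most cell types, rose by 0.75 on the log2 scale, and Mgll, which cleaves monoglyceride, fell by 1.15 on that scale. Of 15 genes of triglyceride synthesis 2 rose and 1 fell, among them Lpin3 (log2 change 0.997) and Agpat3 (log2 change -0.58). Of 20 genes of fatty acid oxidation and PPAR targets 3 rose and 1 fell. Ucp2, a mitochondrial carrier, averaged 166 CPM in Het-NTD and 11.8 CPM in WT-NTD on that scale (log2 change 3.81 ± 0.07 SE, edgeR adjusted p = 1.04e-11). Ucp2 shares exon sequence with the opposite-strand gene Dnajb13, so its reads are uncertain in the same way.

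Of 10 tested adipokine and mature adipocyte genes 3 rose and 3 fell. The retinol carrier Rbp4 rose by 2.60 and Tusc5 by 2.36 on the log2 scale, and Tusc5 averaged 0.447 CPM in Het-NTD and 0.0816 CPM in WT-NTD. Itih5 fell by 1.60 on that scale. Of 16 progenitor markers 0 rose and 2 fell, Cd55 and Icam1, with log2 changes of -0.93 and -1.60. Of 10 other carbonic anhydrases Car6 rose by 2.24 and Car8 fell by 2.57 on the log2 scale. The medians of the 9 lists lay between -0.24 and 0.09, against 0.00 over all genes, with 11.5% of all genes called. In KO against WT 1 of 141 was called by edgeR, with a gene counted once per list, beside 0.447% of all genes. It was the matrix protein gene Mgp, with a mean of 39.7 CPM in KO and 160 CPM in WT (log2 change -2.01, edgeR adjusted p = 0.0127). At an unadjusted p under 0.05 there were 22 of the 141 (15.6%, beside 12% of all genes). DESeq2 called 9 of them, beside 3.09% of all genes. No listed gene was called by edgeR in KO-NTD against KO, Het-NTD against Het, WT-NTD against WT, the interaction or lung Het against WT. Counting a gene once per list, an unadjusted p under 0.05 was found in KO-NTD against KO for 22 of 141 (15.6%, beside 6.68% of all genes), in Het-NTD against Het for 15 of 139 (10.8%, beside 6.26%) and in WT-NTD against WT for 22 of 139 (15.8%, beside 7.37%). It was found in the interaction for 15 of 139 (10.8%, beside 4.97%) and in lung for 1 of 160 (0.625%, beside 0.715%). DESeq2 called 0, 2, 2, 1 and 0 of them in these 5 comparisons. It called 0.179%, 0.161%, 0.21%, 0.021% and 0.00628% of all genes in the same order. The lists were chosen with results known, so these shares are descriptions.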

How the data were processed

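RNA was measured by bulk sequencing in 27 mouse libraries. Per the labels' protocols, a TruSeq kit without strand marking was used on about 200 ng of RNA. The authors deposited raw read counts per gene symbol, not normalised. Per the submitters' processing notes, the build was mm10 and the software was featureCounts 1.4.6, Subread, Bowtie2 2.2.6 and TopHat2 2.0.14. The gene annotation is not given in the sources used here, nor is the strand setting.

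The 10 genes, the gene lists and the marker lists were chosen with earlier results of these data known. Genes were tested with edgeR 4.0.16 in R 4.3.3 (filterByExpr, TMM, robust quasi-likelihood F test, two-sided, Benjamini-Hochberg over all genes tested, threshold 0.05). The fits held 9 libraries and 14551 genes (experiment 1), 12 and 14314 (experiment 2), 6 and 15933 (lung) and 12 and 16364 (lung with experiment 2). Adipoq, Plin1, Cidec and Cfd did not pass the filter in the fibroblast fits. A 95% interval of a log2 change comes from its standard error. Each listed gene was named if it was among the 4 lowest p-values of its list and passed. Likeness to Cd36 was the Pearson correlation of log2 CPM (prior count 2). Coordinates and lengths are from GENCODE M21, promoters from RefSeq GRCm38.p6.

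The labels do not say whether libraries came from separate embryos, animals or cultures, so p-values measure the spread between these libraries, which may be technical. Replicates were distinct libraries, with a chi-square per degree of freedom of at least 5.65 between any pair. The 10 genes shared no exon sequence with another gene of the table. Whether replicate numbers pair libraries was not settled, and the main fits took libraries as unpaired. Correlations of same-numbered libraries ran from -0.396 to 0.715 in experiment 1 (5 of 9 pairs over 0.1). They ran from -0.344 to 0.67 in experiment 2 (9 of 18) and from -0.403 to 0.19 in lung (1 of 3). WT with WT-NTD gave 0.356, 0.67 and 0.082, and Het with Het-NTD 0.045, 0.202 and 0.256. KO with KO-NTD gave 0.211, -0.396 and 0.715. Alternatives were DESeq2 1.42.0, RLE size factors, no filter, a replicate block, the 2 groups alone, the macrophage markers as a covariate and each library left out. The edgeR fits were tested on simulated data first.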

Additional observations from a re-analysis of the deposited data

Results flagged for a closer look

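In an edgeR test of the Het effect in lung minus that in fibroblasts, Cd36 was called, beside 1.12% of all genes. The other 5 genes that passed the filter in both tissues did not pass that test. The effect in lung minus that in fibroblasts of experiment 2 was 3.77 on the log2 scale (edgeR adjusted p = 0.0191). The call was lost without fibroblast Het 3 (adjusted p = 0.0544), lung WT 2 (0.0594) or lung WT 3 (0.0673). In fibroblasts Cd36 was lower in 3 of 3 Het libraries than in every WT library, while in lung Het and WT overlapped. The fibroblast side is the comparison with which Cd36 was chosen, and macrophage markers were lower in the same Het libraries, so the value supports nothing further.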

How the results depend on the processing

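No result turned its direction past a threshold. Counts of genes called moved most. DESeq2 called 449 genes in KO against WT (edgeR 65), 26 in KO-NTD against KO (1), 23 in Het-NTD against Het (2), 30 in WT-NTD against WT (2), 3 in the interaction (0), 1 in lung Het against WT (0) and 711 for the Het effect in lung minus fibroblasts (184). With the macrophage markers as a covariate the counts were 421 in KO against WT, 2 in KO-NTD against KO, 385 in Het against WT (2362), 152 in Het-NTD against WT-NTD (1643) and 1 in Het-NTD against Het. With the 2 groups alone they were 36 in KO against WT, 1389 in Het against WT, 20 in Het-NTD against Het and 1 in WT-NTD against WT. Without a filter they were 2 in KO-NTD against KO and 5 in WT-NTD against WT. With the replicate block they were 1 in Het-NTD against Het, 4 in WT-NTD against WT and 79 in the difference between tissues. The block also ended the call of Cd36 in that difference (log2 3.75, edgeR adjusted p = 0.0523) and changed no other call of the 10 genes.

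Leaving out 1 library gave from 24 up to 142 genes in KO against WT, from 1 up to 29 for KO-NTD against KO, 1304 to 2547 in Het against WT, 739 to 1622 in Het-NTD against WT-NTD, 1 to 3 in Het-NTD against Het, 2 to 119 in WT-NTD against WT, 0 to 2 in the interaction, 0 to 0 in lung, 39 to 546 in the difference between tissues and 11593 to 12081 in WT lung against WT fibroblasts. The causes were not tested. With 3 libraries a group and 6 to 9 Cd36 counts in Het-NTD, the size of low levels is less certain than their order.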
